A study of Bos taurus with 30 samples.

Results

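*POMC*, *SERPINA1* and *ANGPTL7* were followed in the anterior pituitary of 30 Holstein-Friesian bull calves, as 3 of the 27607 genes in the deposited expression table. The members were taken by their Ensembl identifiers, namely ENSBTAG00000007897 (*POMC*), ENSBTAG00000018843 (*SERPINA1*) and ENSBTAG00000015340 (*ANGPTL7*). All 3 passed the filter on low values, which kept the 14290 genes that exceeded a value of 1 in 15 or more libraries. *SERPINA1* and *ANGPTL7* had been put on the study's list of genes differing between diets on these same calves, so their diet difference is given as a description with no test. *POMC* was not on that list.

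From 2 to 12 weeks of age, 15 calves were fed a high plane of nutrition (HI) and 15 a moderate one (MOD). The daily HI ration was 1.5 kg of milk replacer, made up to 10 litres, with concentrate to appetite. The daily MOD ration was 0.5 kg of milk replacer, made up to 4 litres, and 0.5 kg of concentrate. Each calf gave 1 poly(A) mRNA library from a portion of anterior lobe tissue not sorted by cell type. Fewer cells of a type and less RNA per cell therefore cannot be told apart. Hay and water were available to all calves, and all were killed at 12 weeks of age.

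*POMC* encodes pro-opiomelanocortin, the precursor that corticotrophs cleave into adrenocorticotrophic hormone (ACTH), the pituitary signal for glucocorticoid release from the adrenal cortex. In the intermediate lobe, melanotrophs cleave the same precursor further, into α-melanocyte-stimulating hormone and related peptides. *SERPINA1* encodes alpha-1-antitrypsin, a secreted inhibitor of serine proteases known best from liver and plasma. *ANGPTL7* encodes a secreted protein of the angiopoietin-like family, known best from the eye. *GH1* (growth hormone, of somatotrophs) and *PRL* (prolactin, of lactotrophs) are the leading hormone genes of the other main cell types of this lobe.

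The libraries held 14.7 to 26.9 M (mega) reads, with means of 21.6 ± 2.01 M for HI calves and 21.3 ± 3.47 M for MOD calves (SD, n = 15 per diet). HI replicate 3 stood apart. Its mean correlation with the other libraries was 0.782, against 0.953 to 0.973 for the rest, and its scaling factor was 0.510, against 0.894 to 1.15. *GH1* was at 478285 normalised CPM in that library and at no more than 162104 in any other HI calf. Normalised CPM are read counts relative to an effective library size, as scaled by the authors. Results are therefore given with and without HI replicate 3 where they differ. Values are compared between calves for 1 gene and not between genes, since they are not per length.

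*POMC* ranged widely among the HI calves. In HI its level was lowest at 1705, had a median of 4619 and was highest at 52819 normalised CPM. In MOD its lowest, median and highest levels were 1213, 4395 and 9890 normalised CPM. The medians were close, while 4 of 15 HI calves, HI replicate 3 among them, lay above every MOD calf and 1 MOD calf lay below every HI calf.

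The HI calf with the most *POMC* was replicate 2, in which the gene took 1257800 reads, or 5.27% of the library (exact binomial 95% interval 5.26 to 5.27%). HI replicate 9 followed with 22150 normalised CPM, then HI replicate 3 with 11987 and HI replicate 15 with 11074. The place of HI replicate 3 rested on its scaling factor of 0.510. By share of reads it had 0.612%, below HI replicate 15 (1.09%) and MOD replicate 1 (0.936%). The highest MOD calf, replicate 1, had 9890 normalised CPM, next to HI replicate 10 with 9816 and HI replicate 1 with 9470. Intervals of this kind cover counting error only. Those of MOD replicate 1 and HI replicate 10 overlapped, and the gaps between the other calves named here were wider than counting error.

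The mean *POMC* level of the HI calves was 9686 ± 13163 normalised CPM and that of the MOD calves 4579 ± 1917 (SD, n = 15 per diet). Leaving out HI replicate 2 gave an HI mean of 6606 ± 5766 (SD, n = 14), and leaving out HI replicate 3 gave 9522 ± 13644 (SD, n = 14). The highest HI level was 31.0-fold the lowest, against 8.15-fold in MOD.

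The spread of *POMC* between calves was greater in HI than in MOD. On the log2(value + 1) scale its SD was 1.44 in HI and 0.66 in MOD, a ratio of 2.20 (permutation test of residuals from the group medians, 100000 permutations, two-sided, p = 0.0231). The ratio was 1.79 without HI replicate 2 (permutation p = 0.0481). Without HI replicate 9 it was 2.11, just short of the threshold of 0.05 (permutation p = 0.0501), as it was under scaling by library totals, at 2.08 (permutation p = 0.0535). *POMC* was taken up with earlier results of these calves known, so the p-values of its spread are descriptions only. SD was also greater in HI for *SERPINA1* (0.91 against 0.41), *ANGPTL7* (1.10 against 0.36) and *PCSK1* (0.70 against 0.64). Without HI replicate 2 the HI values were 0.66, 0.49 and 0.72, so the excess for *ANGPTL7* rested largely on that calf. For *GH1* the SD was 0.68 in HI against 0.30 in MOD (0.33 in HI without HI replicate 3). *PRL* went the other way (0.63 against 0.85).

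Sample titles fall into 4 series by the digits after the first in their number, whose meaning is not stated. Series 78 was the only one with more than 5 libraries in either diet and held 8 HI calves, replicates 2 and 3 among them, and 8 MOD calves. Within it the SD of log2 *POMC* was 1.64 in HI and 0.24 in MOD, a ratio of 6.81 (exact permutation test, p = 0.00637). The *POMC* range there was 1843 to 52819 normalised CPM in HI and 3084 to 5035 in MOD, so HI calves lay on both sides of all MOD calves. The MOD calves with the most and the least *POMC*, replicates 1 and 12, were not in this series. The ratio thus leaves out both extremes of MOD and keeps the highest HI calf.

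Over the 30 calves together, *POMC* was also among the most variable genes. After removal of the diet means, its SD over the 30 calves was 1.10 on the log2 scale, the 42nd widest of 14290 genes (0.294%). The median gene had an SD of 0.32. *ANGPTL7*, at 0.80, was 292nd, and *SERPINA1*, at 0.70, was 776th.

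*SERPINA1* was lowest at 6.18, had a median of 13.4 and was highest at 86.4 normalised CPM in HI. In MOD the lowest, median and highest levels were 4.31, 9.59 and 14.9 normalised CPM. Of the 15 HI calves, 7 lay above every MOD calf and 12 above the MOD median, and 2 MOD calves lay below every HI calf. HI replicate 3 was among the 7, but its share of reads (0.000906%) was below that of MOD replicate 11 (0.00147%). The diets overlapped at the lower HI levels.

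HI replicate 2 again held the highest *SERPINA1* level. HI replicate 9 was second, with 30.9 normalised CPM, and HI replicate 15 was 3rd, with 26.4. The HI mean was 20.1 ± 19.7 normalised CPM, above a MOD mean of 9.39 ± 2.77 (SD, n = 15 per diet). It dropped to 15.4 ± 7.43 when HI replicate 2 was left out (SD, n = 14).

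*ANGPTL7* was low in most calves. In HI it was lowest at 1.36, had a median of 2.66 and was highest at 51.5 normalised CPM. In MOD the lowest, median and highest levels were 0.805, 1.99 and 3.13 normalised CPM. In HI, 6 of 15 calves lay above every MOD calf and 11 above the MOD median, and 5 MOD calves lay below every HI calf. HI replicate 3 was among the 6, but its share of reads (0.000221%) was below that of MOD replicate 3 (0.000335%).

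The highest level of *ANGPTL7* was set by a single calf. HI replicate 2 had 1227 reads, or 51.5 normalised CPM (exact Poisson 95% interval 48.7 to 54.5). The next calf, HI replicate 9, had 142 reads, or 5.94 normalised CPM. The fewest reads were 19, in MOD replicates 12 and 14. At that depth a level of 0.890 normalised CPM, as in MOD replicate 12, has an interval of 0.536 to 1.39, so the order of the lowest calves is not resolved.

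The HI mean of *ANGPTL7* was 6.11 ± 12.6 normalised CPM (SD, n = 15), and 2.87 ± 1.39 without HI replicate 2 (SD, n = 14). The MOD mean was 1.83 ± 0.683 (SD, n = 15). The plot of levels by calf shows the same calf at the top of all 3 genes.

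**Figure D1:**
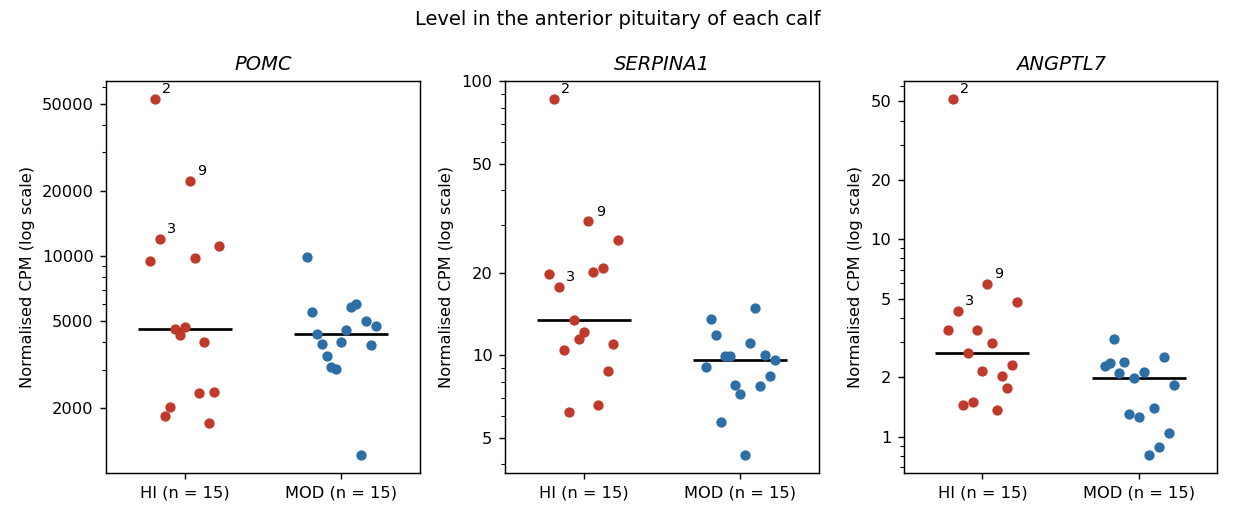
Level of *POMC*, *SERPINA1* and *ANGPTL7* in each calf, in normalised CPM on log axes, for HI and MOD (n = 15 each). Points are calves, bars are medians, and the numbers 2, 3 and 9 mark those HI replicates. HI replicate 2 is highest in every panel, at 52819, 86.4 and 51.5 normalised CPM, and the MOD calves span a narrower range than the HI calves.

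The diet comparison asked whether the plane of nutrition altered gene expression in this lobe. It was fitted with limma on log2(value + 1) over all 14290 genes. No gene passed the study's thresholds, which ask for a fold change over 1.5 at an adjusted p under 0.1 (0 genes, 0%), while 933 genes had an unadjusted p under 0.05. The edgeR quasi-likelihood test on the recovered reads also called 0 genes. The edgeR likelihood-ratio test and the DESeq2 Wald test called 26 each (0.182%).

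*POMC* was 0.43 ± 0.39 higher in HI on the log2 scale (SE, 95% interval -0.37 to 1.22, limma adjusted p = 0.844). The interval of the difference included 0 and also covers more than a doubling. It was 0.20 without HI replicate 2 and 0.35 without HI replicate 3. Within series 78 it was 0.47. *GH1* differed by -0.01 ± 0.22 (SE, interval -0.46 to 0.44, limma adjusted p = 0.992) and *PRL* by 0.16 ± 0.29 (SE, interval -0.42 to 0.75, limma adjusted p = 0.895).

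*SERPINA1* was 0.74 ± 0.25 higher in HI and *ANGPTL7* 0.67 ± 0.29 higher on the log2(value + 1) scale (SE, n = 15 per diet), which understates changes of low genes such as *ANGPTL7*. The differences were 0.57 for *SERPINA1* and 0.41 for *ANGPTL7* without HI replicate 2. They were 0.73 and 0.65 without HI replicate 3, and within series 78 they were 0.70 and 0.77. HI was the higher group in each of these settings, and the size for *ANGPTL7* turned most on 1 calf.

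The count-based tests weigh a high count more than the log scale does. The likelihood-ratio test gave log2 fold changes of 1.09 for *POMC*, 1.10 for *SERPINA1* and 1.74 for *ANGPTL7*. It called 2 of the 3 members, *SERPINA1* and *ANGPTL7*, among the 0.182% of genes called. Since the list was chosen on this contrast, nothing is read from that count. *POMC* had an adjusted p of 0.365 in that test.

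With HI replicate 2 left out, the likelihood-ratio test called 19 genes (0.133%) and 0 of the 3 members. The log2 fold changes were then 0.53 for *POMC*, 0.72 for *SERPINA1* and 0.65 for *ANGPTL7*. With HI replicate 3 left out instead, it called 37 genes (0.259%), *SERPINA1* and *ANGPTL7* among them. These calls are given, like the fold changes, as a description of the contrast that chose both genes.

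DESeq2 treated that calf in its own way. By default it replaces counts that lie far from the rest of a group, and it replaced the 1227 *ANGPTL7* reads of HI replicate 2 by 51. The log2 fold change of *ANGPTL7* was then 0.63 and the gene was not called, whereas *SERPINA1*, with no count replaced, was called at 1.11. With the counts kept as they were, *ANGPTL7* came to 1.75 and was called, among 28 genes (0.196%). With HI replicate 2 left out, DESeq2 called 24 genes (0.168%) and 0 of the members.

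**Figure D2:**
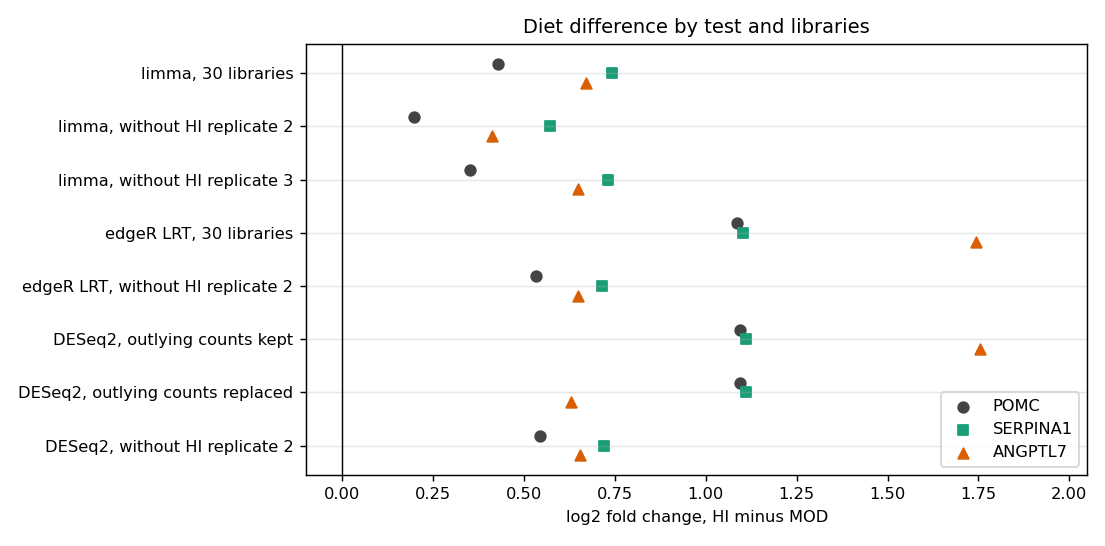
Diet difference of *POMC* (circles), *SERPINA1* (squares) and *ANGPTL7* (triangles) as log2 fold change, HI minus MOD, for 8 combinations of test and libraries. All points lie above 0. *ANGPTL7* is at 1.74 and 1.75 where the 1227 reads of HI replicate 2 enter a count test, and between 0.41 and 0.67 in the other settings shown.

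The 3 genes followed one another across the HI calves. The 7 calves with the most *POMC* and the 7 with the most *SERPINA1* shared 6 calves, and *POMC* and *ANGPTL7* shared 5. HI replicate 3, whose places rested on its scaling factor, was among the shared calves each time. HI replicates 2, 9 and 15 were the 1st, 2nd and 3rd calves for *SERPINA1* and also for *ANGPTL7*. The exception among the calves rich in *POMC* was MOD replicate 1, which was 5th for *POMC* but 21st for *SERPINA1* (9.04 normalised CPM) and 14th for *ANGPTL7*. In the other direction, HI replicate 12 had 20.8 normalised CPM of *SERPINA1* with 4011 of *POMC*, below the *POMC* median of either diet.

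Correlations were taken on log2(value + 1) and are descriptions, since the genes were brought together with earlier results of these calves known. Within HI, Pearson r was 0.926 for *POMC* and *SERPINA1*, 0.840 for *POMC* and *ANGPTL7*, and 0.860 for *SERPINA1* and *ANGPTL7* (n = 15). Spearman rho, which depends less on extreme calves, was 0.868, 0.814 and 0.693. Without HI replicate 2 the values of r were 0.882, 0.832 and 0.703 (n = 14), and without both HI replicates 2 and 9 they were 0.844, 0.763 and 0.601 (n = 13). Without HI replicate 3 they were 0.938, 0.845 and 0.859 (n = 14). The r of *POMC* with both genes in HI thus stayed at 0.763 or higher in each of these sets of calves.

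Within MOD the same correlations were lower. They were 0.289 for *POMC* and *SERPINA1*, 0.357 for *POMC* and *ANGPTL7*, and 0.032 for *SERPINA1* and *ANGPTL7* (n = 15), with rho of 0.489, 0.221 and 0.261. The range of *POMC* was also narrower in MOD, and the difference in r between diets was not tested for these pairs. For each unit of log2 *POMC*, log2 *SERPINA1* was higher by 0.588 ± 0.066 in HI and by 0.180 ± 0.165 in MOD (SE). For *ANGPTL7* the slopes were 0.640 ± 0.115 and 0.197 ± 0.143 (SE), and without HI replicate 2 the HI slope was 0.347 ± 0.067.

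Over all 30 calves, with the diet means removed, r was 0.819 for *POMC* and *SERPINA1*, 0.772 for *POMC* and *ANGPTL7*, and 0.750 for *SERPINA1* and *ANGPTL7*. Within series 78 the same values were 0.885, 0.870 and 0.865 (n = 16). They were 0.721, 0.681 and 0.480 without HI replicate 2 (n = 29). The link between *SERPINA1* and *ANGPTL7* fell most when that calf was left out.

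**Figure D3:**
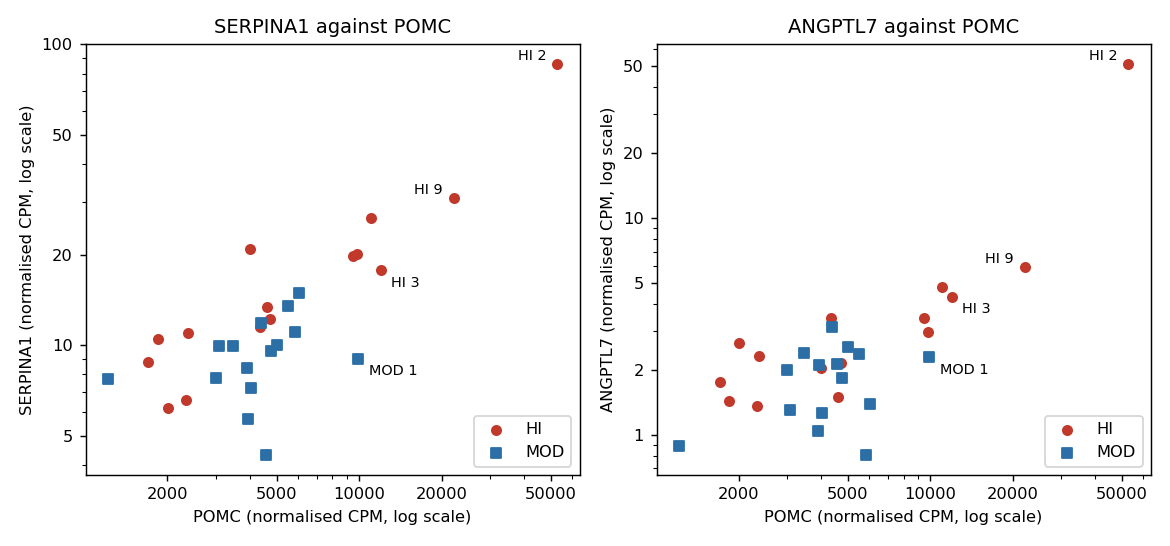
*SERPINA1* (left) and *ANGPTL7* (right) against *POMC* in each calf, all in normalised CPM on log axes, with HI as circles and MOD as squares. HI calves rise together from lower left to HI replicate 2 at upper right (r = 0.926 and 0.840, n = 15), MOD calves form a loose cloud (r = 0.289 and 0.357, n = 15), and MOD replicate 1 lies to the right of that cloud.

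To set the diet difference beside *POMC*, the level of *POMC* was added to the model of each gene. The model assumed a common slope for both diets (0.518 ± 0.070 for *SERPINA1* and 0.564 ± 0.089 for *ANGPTL7*, SE). The slopes fitted within each diet were lower in MOD, and with unlike slopes the diet difference would depend on the level of *POMC*. At equal *POMC*, HI calves were 0.52 ± 0.15 higher in log2 *SERPINA1*, against 0.74 ± 0.26 without that term (SE, n = 30). For *ANGPTL7* the difference was 0.43 ± 0.20 in place of 0.67 ± 0.30 (SE, n = 30). The differences at equal *POMC* were 0.49 ± 0.14 and 0.35 ± 0.12 without HI replicate 2 (SE, n = 29). Both genes had been listed for their diet difference, so these values carry no test.

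Likeness to *POMC* was then ranked over all genes tested, by r across the 30 calves with diet means removed. *SERPINA1* was 3rd of 14289 genes and *ANGPTL7* 12th. Within HI *SERPINA1* was 1st, and within MOD it was 2559th. Seen from the other side, *POMC* was 2nd for *SERPINA1* and 8th for *ANGPTL7*. For *POMC*, *SERPINA1* was 9th and *ANGPTL7* 27th without HI replicate 2, and they were 3rd and 21st without HI replicate 3.

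High correlations with *POMC* were not rare in the transcriptome. In all, 422 genes (2.95%) had an r of at least 0.5 with *POMC* and 355 genes (2.48%) had an r of -0.5 or lower. These genes share libraries and depth, and are not independent of each other. The identifiers most like *POMC* were ENSBTAG00000007235 (r = 0.832) and ENSBTAG00000051910 (r = 0.820), and the least like were ENSBTAG00000008302 (r = -0.758) and ENSBTAG00000006534 (r = -0.742).

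Of the 36 genes of the study's list that were tested, 3 had an r of at least 0.5 with *POMC* (8.33%). Over all genes the share was 2.95%. *SERPINA1* and *ANGPTL7*, taken up together with *POMC* beforehand, were among the 3, so nothing is read from that share. Beside *SERPINA1* and *ANGPTL7*, the other was *VIPR2*, a receptor for vasoactive intestinal peptide and pituitary adenylate cyclase-activating peptide, with r = 0.673 (62nd of 14289). Its r with *POMC* was 0.796 within HI and -0.005 within MOD, and 0.528 without HI replicate 2. The lowest on the list were *NPTX1*, a neuronal pentraxin gene (r = -0.565), *CSMD2* (r = -0.398) and ENSBTAG00000051317 (r = -0.343).

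*VIPR2* was also among the genes of the list most like the other members. Its r was 0.603 with *SERPINA1* and 0.632 with *ANGPTL7*, and without HI replicate 2 it was 0.386 and 0.379. *WFDC1*, which encodes a secreted protein with a WAP domain, followed for *SERPINA1* (r = 0.475, and 0.548 without HI replicate 2). *WDR86* followed for *ANGPTL7* (r = 0.594, and 0.260 without HI replicate 2). *NPTX1* was lowest for both, with r = -0.382 for *SERPINA1* and -0.407 for *ANGPTL7*. For *SERPINA1* the next lowest were ENSBTAG00000051317 (r = -0.294) and *CSMD2* (r = -0.229), and for *ANGPTL7* they were *PAMR1* (r = -0.401, and -0.061 without HI replicate 2) and *CSMD2* (r = -0.336).

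**Figure D4:**
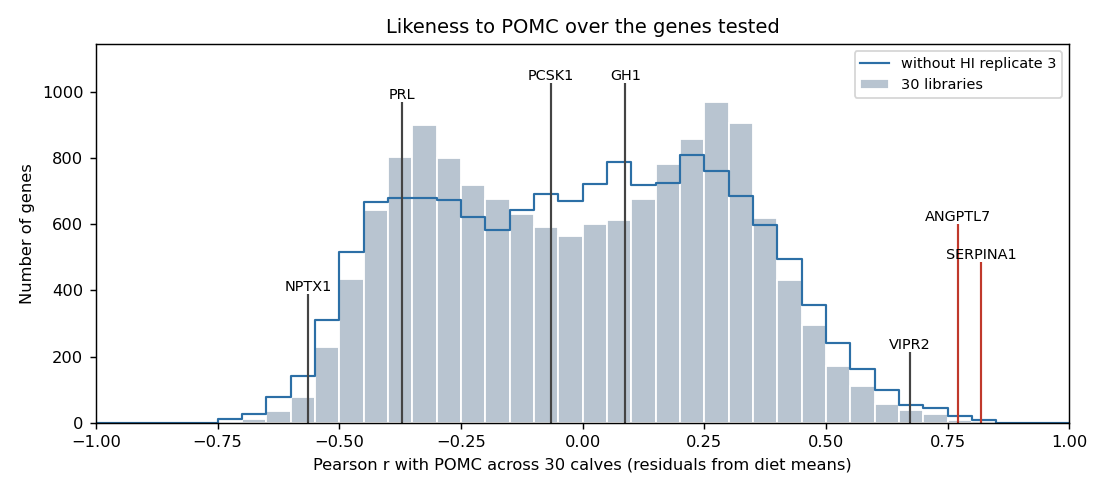
Number of genes by their Pearson r with *POMC* over the 30 calves, in bins 0.05 wide (bars), and the same without HI replicate 3 (line). *SERPINA1* (0.819) and *ANGPTL7* (0.772) lie in the right tail, *VIPR2* (0.673) inside them and *NPTX1* (-0.565) in the left tail, with *PRL*, *PCSK1* and *GH1* between. The 2 humps of the bars are flatter in the line.

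*POMC* was last compared with *GH1* and *PRL*, to ask whether these hormone genes rose and fell together between calves. *GH1* in HI was lowest at 72318, had a median of 96024 and was highest at 478285 normalised CPM, and in MOD these were 78683, 98793 and 153763. *PRL* in HI was lowest at 54212, had a median of 105635 and was highest at 276374 normalised CPM, and in MOD these were 32659, 73055 and 225325. Both genes overlapped between diets over nearly their whole range, apart from *GH1* in HI replicate 3.

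*POMC* and *GH1* showed no relation that passed the test. With diet means removed, r was 0.088 and rho 0.0047 over 30 calves (permutation p = 0.722 and 0.982, adjusted p = 0.751 over 3 relations tested). Without the 2 calves farthest from the *POMC* median, HI replicates 2 and 9, r was 0.278 (permutation p = 0.245). Its sign was not stable, since r was -0.113 without HI replicate 3 and -0.025 under scaling by library totals.

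*POMC* tended to be low where *PRL* was high. Over the 30 calves r was -0.370 and rho -0.386 (permutation p = 0.0252 and 0.0298), which did not pass after adjustment over the 3 relations (adjusted p = 0.0755). The r was -0.363 without the 2 farthest calves (permutation p = 0.0441), -0.390 without HI replicate 3 and -0.382 within series 78 (n = 16, permutation p = 0.0961). Within HI it was -0.462 (permutation p = 0.0829) and within MOD -0.359 (permutation p = 0.194). The relation was negative in all of these, and no single one passed with adjustment.

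*PRL*, *GH1* and *POMC* themselves enter the library total, so the relation was recomputed on other scalings. With values scaled to the reads outside *GH1*, *PRL* and *POMC*, r with *PRL* was -0.411 (adjusted p = 0.0386 by permutation). With values scaled to library totals, r was -0.463 (adjusted p = 0.0134 by permutation). Library totals include the reads of these genes, so the latter value cannot address that concern. Under median-ratio scaling r was -0.364 and did not pass (adjusted p = 0.0854 by permutation). The call thus depended on the scaling while the sign did not. Without MOD replicate 1, the MOD calf with the most *POMC*, r was -0.437 (adjusted p = 0.0225 by permutation). That was the only 1 of 30 runs with a library left out that passed. The other 29 did not pass, with adjusted p by permutation of up to 0.195.

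The relations of *POMC* to both hormones were not shown to differ between diets. The difference in r, HI minus MOD, was 0.059 for *GH1* (permutation p = 0.905) and -0.103 for *PRL* (permutation p = 0.715). *PCSK1* encodes the prohormone convertase that makes the first cleavages of pro-opiomelanocortin. Its lowest, median and highest levels were 9.41, 33.0 and 74.0 normalised CPM in HI and 9.83, 17.9 and 42.5 in MOD. Its r with *POMC* was -0.064 and rho -0.147 (permutation p = 0.751 and 0.440, adjusted p = 0.751), and r was 0.027 without HI replicate 3. The r was -0.159 within HI, 0.150 within MOD, and -0.202 without HI replicates 2 and 9. No relation of precursor and convertase passed the test, and the sign of r was not stable.

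**Figure D5:**
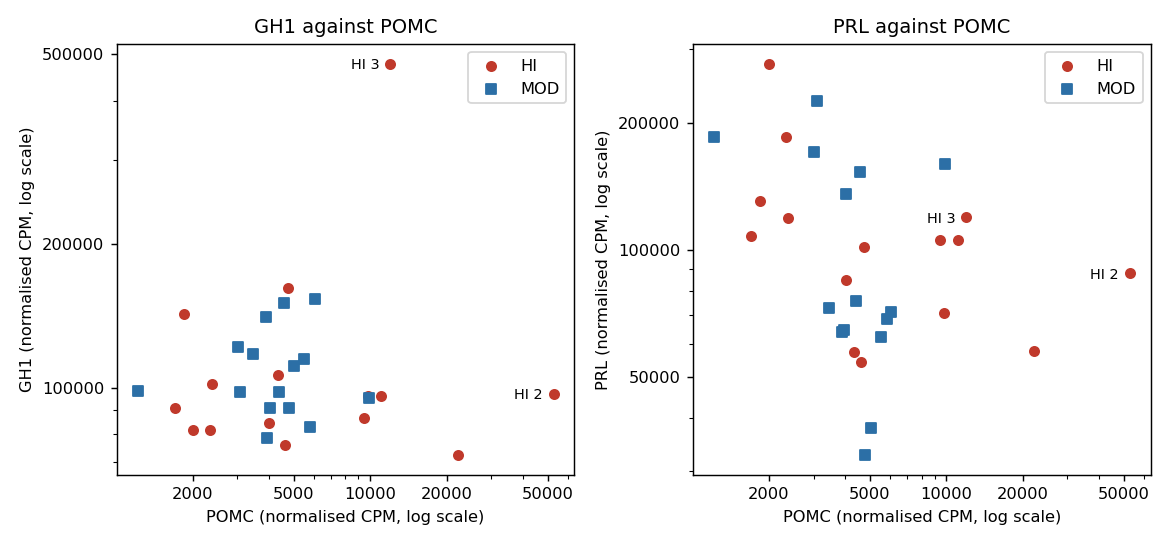
*GH1* (left) and *PRL* (right) against *POMC* in each calf, in normalised CPM on log axes, with HI as circles and MOD as squares. *GH1* is level across the range of *POMC* (r = 0.088) apart from HI replicate 3 at 478285, and *PRL* slopes down (r = -0.370, adjusted p = 0.0755 by permutation, 30 calves).

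HI replicate 2, the calf highest in all 3 members, was unremarkable in *GH1* and *PRL*, the other hormone genes examined. It was 16th of 30 calves for *GH1*, with 97355 normalised CPM, and 16th for *PRL*, with 88003. Its mean correlation with the other libraries, 0.963, was within the range of the rest. Genes that mark melanotrophs, other pituitary cells, blood or stroma could not be paired with the identifiers of the table, so their part in the levels of these calves was not tested.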

How the data were processed

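Anterior pituitary mRNA from 30 calves was sequenced by the authors as stranded libraries of paired reads. Per the labels and the study's methods, adapters were removed with Cutadapt, and reads were aligned to ARS-UCD1.2 and counted per gene with STAR. The submitters' processing notes name STAR 2.6.1, Cutadapt 2.6 and edgeR 3.5. The deposited values are a normalised signal, read counts scaled by the authors to an effective library size (normalised CPM). Over all libraries, 100% of the 556895 nonzero values lay within 0.01 of a whole read (largest distance 0.000756), so whole reads were recovered. No value carries a genome position or gene symbol. Symbols came from the study's list of 37 genes and, for *POMC*, *GH1* and *PRL*, from the identifiers chosen for this work. A RefSeq gene table (ARS-UCD2.0) matched 0 identifiers, so planned pathway and cell type marker lists, sequences and coordinates were not used here.

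Because the unit is not a raw count, log2(value + 1) was tested with limma 3.58.1 (R 4.3.3, mean-variance trend, no covariate). Genes had to exceed a value of 1 in 15 or more libraries, and calls needed a fold change over 1.5 and a Benjamini-Hochberg adjusted p under 0.1, two-sided. The recovered reads were tested as alternatives in edgeR 4.0.16, whose likelihood-ratio test called 26 genes and quasi-likelihood test 0, and in DESeq2 1.42.0, which called 26. Correlations used residuals from diet means, permuted within diets. These tests and that of spread drew 100000 permutations (20000 where a library was left out), in Python 3.11.15 with NumPy 2.4.6. The limma fit and the permutation test of correlations were tried on simulated data, and the other steps were not. Other alternatives changed the scaling, pseudocount, filter or libraries, or added the title series.

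Calves had been blocked by the authors on age, bodyweight, sire and farm, but no sample is labelled with its block. Replicates were numbered in accession order. Each library is a separate calf per the labels. A check for a library deposited more than once found none (lowest chi-square per degree of freedom between libraries of a diet 13.8). The members and lists were chosen with earlier results of these data known. Named genes are the members, *GH1*, *PRL*, *PCSK1*, the genes of the study's list most and least like each member, and at most 2 identifiers each way over all genes.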

Additional observations from a re-analysis of the deposited data

How the results depend on the processing

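The direction of the diet difference was HI over MOD for all 3 members under every alternative tried, and *POMC* was never called (45 alternatives, log2 fold change 0.20 to 1.09, adjusted p 0.295 to 0.938). With 1 library left out in turn, the log2 fold change was 0.20 to 0.55 for *POMC*, 0.57 to 0.83 for *SERPINA1* and 0.41 to 0.73 for *ANGPTL7*, lowest without HI replicate 2 in each case. *ANGPTL7* moved to 1.74 in both edgeR tests (1.77 by likelihood ratio without HI replicate 3) and to 1.75 in DESeq2 with outlying counts kept. The count tests with a library left out, DESeq2 with outlying counts kept, the models with *POMC* as a covariate, and the correlations among the members without the 2 calves farthest from the *POMC* median were chosen after seeing the data. Genes called over the whole table numbered 2 under scaling by library totals, 3 under scaling to reads outside *GH1*, *PRL* and *POMC*, 26 in the likelihood-ratio test (37 without HI replicate 3, 19 without HI replicate 2), 26 in DESeq2 (28 with outlying counts kept, 24 without HI replicate 2), 8 in the quasi-likelihood test without HI replicate 2, and 0 to 11 in limma with 1 library left out (11 without HI replicate 3, 8 without HI replicate 2).

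The ratio of *POMC* spread was 1.79 to 3.23 with 1 library left out (permutation p 0.00055 to 0.0501). It was 2.08 under scaling by library totals (permutation p = 0.0535, above 0.05). The r of *POMC* with *PRL* was -0.437 to -0.304 with 1 library left out, and passed in 1 of these 30 runs. With all libraries it passed under scaling by library totals (-0.463) and to reads outside the 3 hormone genes (-0.411). It did not pass under median-ratio scaling (-0.364). The r with *GH1* changed sign under the same 2 scalings (-0.025 and -0.077) and was -0.113 to 0.174 with 1 library left out. That with *PCSK1* changed sign under scaling by library totals (0.064) and within MOD (0.150), and was -0.156 to 0.027 with 1 library left out. The difference of r between diets for *GH1* changed sign under scaling by totals (-0.179) and outside the hormone genes (-0.088), and was -0.229 to 0.175 with 1 library left out. For *PRL* it was -0.293 to 0.144, reversed without MOD replicate 1. None of these differences passed. Among the members, r fell to 0.658 (*POMC* and *SERPINA1*), 0.602 (*POMC* and *ANGPTL7*) and 0.372 (*SERPINA1* and *ANGPTL7*) without the 2 calves farthest from the *POMC* median. With 1 library left out it was 0.721 to 0.852, 0.681 to 0.795 and 0.480 to 0.788. The causes were not tested.

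No paired analysis was possible because replicate numbers were given in accession order and mark no shared block. Depth limits *ANGPTL7*, whose lowest count was 19 reads.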
